A study of Mus musculus with 63 samples.

Results

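Neuropeptides are short secreted signals cut from longer precursor proteins, and most of them act on G-protein-coupled receptors. The genes described are 6 precursors (Npy, Nts, Tac2, Gcg, Sst and Cck) and 3 receptors (Ntsr1, Sstr2 and Mc4r), 9 genes of 23078 in the table, picked by symbol because several of them had large differences between cell types or days in these same libraries. The measured values therefore chose the members, and their differences are given as a description, with standard errors and no test. All 9 passed the filter for testing (at least 1 TPM in at least 3 libraries), as did 15231 genes in all. TPM is a length-scaled share of the transcripts of a library, so levels of different genes can be set side by side.

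The libraries came from the dorsal cerebral cortex of C57Bl/6 mouse embryos with the genotype Ski knock-out, and all 63 libraries in all 19 groups carry it. Ski encodes a transcriptional co-repressor. No wild-type library was analysed here, so an effect of the loss of Ski cannot be told apart in any value below. Neural stem cells (NSC) were GFP-positive cells of the Hes5::GFP line, with 26 libraries in 8 groups from E11.5 to E18.5. Basal progenitors (BP, 24 libraries in 7 groups from E12.5 to E18.5) and newborn neurons (NBN, 13 libraries in 4 groups from E15.5 to E18.5) came from the Tbr2::GFP line. The sources used here do not say how BP and NBN were separated. The part of Ski that was deleted, the number of embryos in a sample and whether replicates came from separate embryos are not given either, so errors and p-values measure only the spread between these samples.

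In the cortex, peptides such as neuropeptide Y, somatostatin and cholecystokinin are best known as co-transmitters of mature interneurons, where they are stored in dense-core granules. Before they can act, the precursor is cut at pairs of basic residues by prohormone convertases, and many peptides are then amidated at the C-terminus by the enzyme Pam, which uses up a glycine at that end. Dorsal neural stem cells give rise to basal progenitors, which divide to give excitatory neurons, while cortical interneurons are born outside the dorsal cortex and migrate in.

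The stretch of each precursor that encodes its active peptide shows these processing signals and is printed from a coding transcript of the gene. The TPM values are per gene, and whether every counted transcript carries the stretch was not tested. The sequences are the coding strand read 5′ to 3′ from the GENCODE vM21 annotation of GRCm38, with introns left out. Capitals mark the codons of the flanking basic residues, a glycine codon before the right-hand site, or the stop codon. Npy (neuropeptide Y) lies at chr6:49823682-49827501 on the plus strand in coding exons 2 and 3 of the transcript, Nts (neurotensin) at chr10:102482349-102482399 on the minus strand in exon 4, and Tac2 (neurokinin B) at chr10:127728473-127729154 on the plus strand in exons 5 and 6. Gcg (glucagon-like peptide) lies at chr2:62476826-62476927 on the minus strand in exon 4, Sst (somatostatin) at chr16:23889729-23889779 on the minus strand in exon 2, and Cck (the C-terminal part of cholecystokinin) at chr9:121490098-121490133 on the minus strand in exon 2.
Npy: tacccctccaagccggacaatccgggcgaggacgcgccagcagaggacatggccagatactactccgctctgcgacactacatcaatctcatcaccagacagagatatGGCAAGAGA
Nts: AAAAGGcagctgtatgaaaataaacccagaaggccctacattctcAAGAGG
Tac2: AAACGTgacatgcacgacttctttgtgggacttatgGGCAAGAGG
Gcg: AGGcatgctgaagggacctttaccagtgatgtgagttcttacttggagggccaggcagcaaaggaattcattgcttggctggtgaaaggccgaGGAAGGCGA
Sst: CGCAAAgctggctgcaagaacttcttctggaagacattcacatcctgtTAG
Cck: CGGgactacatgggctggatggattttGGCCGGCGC
The glycine codon directly before a basic site, the mark of an amidated peptide, stands in the Npy, Tac2, Gcg and Cck stretches and in neither of the other two. The Sst stretch runs into the stop codon.

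The sort markers followed the labels. Hes5 had group means of 34.3 to 151 TPM in NSC and of 2.41 to 4.76 TPM in BP and NBN, and Eomes, which encodes Tbr2, had 361 to 530 TPM in BP and 9.49 to 71.5 TPM in NBN. Eomes was also at 144 to 425 TPM in NSC, and 8 neuron markers summed to 969 to 7479 TPM in NSC libraries, against 4797 to 7859 TPM in BP and 7500 to 10309 TPM in NBN. None of the 16 interneuron markers was at 0 in every library, and their sum was 149 to 1226 TPM in NSC, 32.0 to 96.1 TPM in BP and 23.7 to 95.3 TPM in NBN. Cajal-Retzius markers summed to at most 623 TPM, choroid plexus markers to at most 257 TPM and endothelium markers to at most 112 TPM in any library. Ski itself had group means of 17.6 to 44.9 TPM. The deleted part is not stated, so whether these levels match the label was not tested. All libraries are labelled female, yet 37 had Y-linked transcripts without Xist, 24 had Xist alone and 2 had both. In NSC at E18.5, replicate 1 differed from replicates 2 and 3 in several members and in the neuron marker sum (5271 against 3319 and 2991 TPM).

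The members did not share one pattern. A gene was counted as past the thresholds when its adjusted p was under 0.05 and its log2 difference at least 1 in size. Between NSC and BP, averaged over the 7 shared days, Sst, Npy and Ntsr1 were higher in NSC and Gcg and Nts lower, 5 of 9 members, beside 3.03% of all tested genes past the same thresholds (2.56% higher and 0.466% lower). Between NBN and BP, over 4 days, Ntsr1, Npy, Mc4r, Cck and Sst were higher in NBN and Tac2, Sstr2 and Gcg lower, 8 of 9, beside 10.8% of all tested genes (5.75% higher and 5.09% lower). Between NBN and NSC, Mc4r, Ntsr1, Nts and Npy were higher in NBN and Tac2, Sstr2 and Sst lower, 7 of 9, beside 8.65% (2.55% higher and 6.11% lower). From E11.5 to E18.5 in NSC, 7 members were higher later and 0 lower, beside 14.8% and 8.17% of tested genes (23% in all). Over the BP course 3 were higher (Tac2, Sstr2 and Gcg) and 1 lower (Ntsr1), beside 6.9% and 4.39% (11.3% in all), and over the NBN course 2 were higher (Nts and Cck) and 1 lower (Mc4r), beside 3.3% and 1.44% (4.74% in all). These contrasts were used to pick the members, so nothing is read from the counts. The comparisons share groups, and the values of each are given side by side below.

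**Figure D1:**
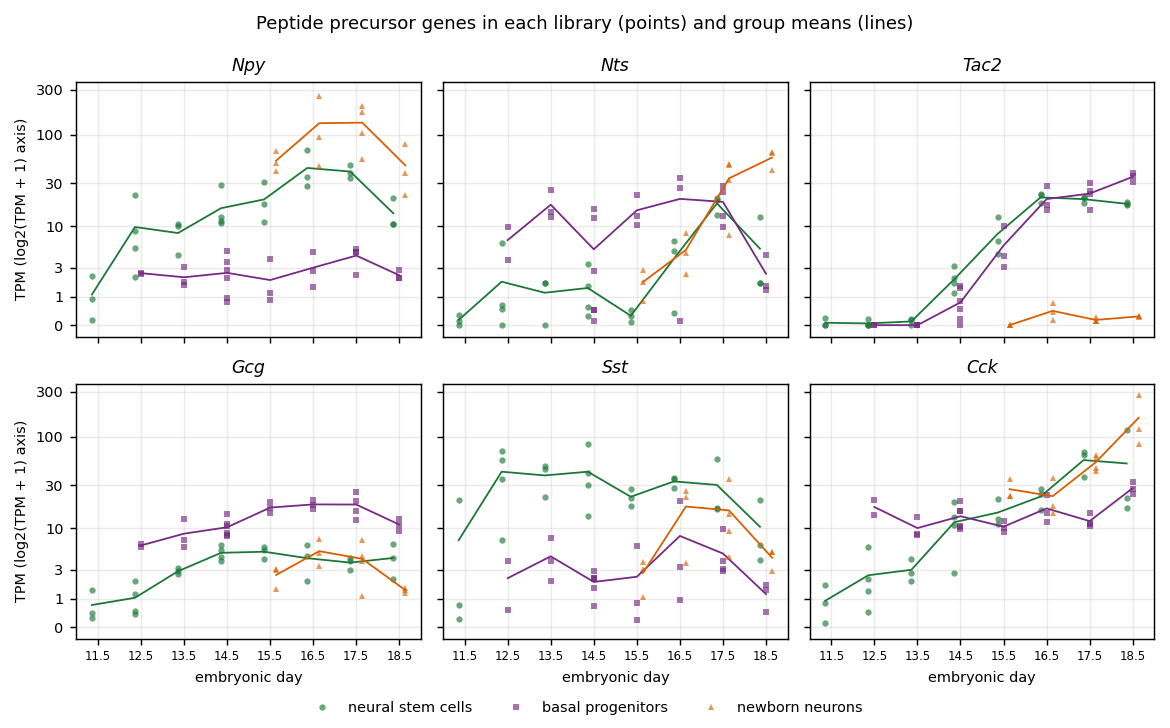
TPM of the 6 precursor genes on a log2(TPM + 1) axis against embryonic day, with 1 point per library, lines through group means, and colours for the 3 cell types. Npy stood at 22.4 to 256 TPM in NBN and at 0.747 to 5.38 TPM in BP, whereas Tac2 was at 0.712 TPM or less in every NBN library.

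Npy encodes neuropeptide Y, a peptide that dampens transmitter release and stimulates feeding. In NBN it measured 67.2, 50.5 and 41.2 TPM at E15.5, 95.5, 256 and 46.5 TPM at E16.5, 176, 55.4, 202 and 104 TPM at E17.5, and 39.0, 79.8 and 22.4 TPM at E18.5. The 24 BP libraries ran from 0.747 TPM through a median of 2.53 TPM to 5.38 TPM. Every NBN library was thus above every BP library. In NSC it measured 0.123, 0.863 and 2.32 TPM at E11.5, 28.3, 35.5 and 68.5 TPM at E16.5, 47.3, 34.8 and 39.1 TPM at E17.5, and 20.7, 10.7 and 10.7 TPM at E18.5. NSC libraries were all above the BP libraries of the same day on 6 of 7 days, and NBN libraries above the NSC libraries on 3 of 4. The log2 difference was 4.32 ± 0.27 (SE) between NBN and BP, 2.35 ± 0.21 between NSC and BP, and 1.47 ± 0.28 between NBN and NSC. The span of the NSC course, the fitted slope times the 7 days from first to last, was 3.25 ± 0.42 and is 4.09 over the course that ends at E17.5. The order of the 19 group means began with NBN at E17.5 (134 ± 66.8 TPM, SD, n = 4), then NBN at E16.5 (133 ± 109 TPM, n = 3), and ended with NSC at E11.5 (1.10 ± 1.12 TPM, n = 3), and the ranges of 17 of 18 neighbouring pairs overlapped.

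Nts encodes the precursor of neurotensin, a peptide that modulates dopamine signalling and body temperature. NBN measured 0.797, 1.88 and 2.85 TPM at E15.5, 2.47, 8.34 and 4.79 TPM at E16.5, 47.3, 7.94, 48.2 and 32.8 TPM at E17.5, and 42.4, 63.7 and 65.05 TPM at E18.5. The E18.5 libraries were thus all above those of E15.5 and E16.5. BP libraries scattered widely even within 1 day. At E14.5 replicates 1 to 4 measured 2.70, 0.450, 0.106 and 0.454 TPM and replicates 5 and 6 measured 15.6 and 12.4 TPM, and at E16.5 the libraries measured 0.0926, 34.2 and 26.6 TPM. At E18.5 BP had 1.32, 4.54 and 1.56 TPM, all below NBN of that day, while at E15.5 the BP libraries (10.3, 12.96 and 22.2 TPM) were all above NBN. The mean log2 difference between NBN and BP over the 4 days, 0.37 ± 0.43, joins days of opposite sign and is -0.89 without E18.5. In NSC the gene was at 0 to 6.70 TPM through E16.5, at 19.96, 20.9 and 13.6 TPM at E17.5, and at 12.6, 1.75 and 1.78 TPM at E18.5, where replicate 1 was the high one. The span of the NBN course was 4.66 ± 0.84 and that of the NSC course 2.72 ± 0.67. The log2 difference between NBN and NSC was 1.47 ± 0.44, and 0.76 without E18.5.

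Cck encodes cholecystokinin, a gut and brain peptide. NBN measured 23.1, 35.6 and 23.3 TPM at E15.5, 15.1, 35.9 and 17.6 TPM at E16.5, 59.6, 42.9, 64.1 and 46.4 TPM at E17.5, and 119, 83.5 and 274 TPM at E18.5. All E18.5 libraries were above all earlier NBN libraries, and NBN at E18.5 (159 ± 101 TPM, SD, n = 3) headed the order with no overlap with the next group, NSC at E17.5 (56.3 ± 17.1 TPM). In NSC it measured 0.102, 1.78 and 0.806 TPM at E11.5, 12.7, 21.3 and 11.1 TPM at E15.5, 69.1, 63.1 and 36.9 TPM at E17.5, and 117, 21.7 and 17.0 TPM at E18.5, where replicate 1 again stood high. BP libraries stayed between 8.28 and 32.3 TPM with a median of 12.7 TPM, and the 3 highest of them were those of E18.5, at 32.3, 27.4 and 24.3 TPM. The span of the NSC course was 4.99 ± 0.37. Over the NBN course it was 2.49 ± 0.47, and 0.95 over the shorter course that ends at E17.5. The 4 libraries of E17.5 were also all above those of E15.5 and E16.5. The log2 difference between NBN and BP was 1.503 ± 0.24.

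The NBN libraries of later days also had more transcripts of microglia, the immune cells of the brain. The 10 microglia markers summed to 4.42 to 7.69 TPM at E15.5 and to 114 to 154 TPM at E18.5, and 9 of 10 passed the thresholds as higher over the NBN course, with Fcer1g and P2ry12 at 0 in some NBN libraries. Nts and Cck were high on the same days, and the part of these cells in their values was not tested. BP libraries had sums of 2.74 to 20.5 TPM. In NSC the sum reached 356 TPM in E17.5 replicate 1 and 55.6 TPM in E18.5 replicate 1, the latter being the library with the high Nts and Cck values of its day. In E17.5 replicate 1, Nts was 19.96 TPM and Cck 69.1 TPM. The other NSC libraries of that day had 20.9 and 13.6 TPM of Nts and 63.1 and 36.9 TPM of Cck. In bulk libraries such as these, fewer cells of a type and less RNA per cell cannot be told apart.

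Tac2 encodes neurokinin B, a tachykinin known from the neurons that drive gonadotropin release. It was listed at 0 in 15 of 63 libraries, among them all 5 BP libraries of E12.5 and E13.5 and all 3 NBN libraries of E15.5. In BP it measured 0.466, 1.56, 1.47, 0.785, 0.152 and 0 TPM at E14.5, 10.2, 4.39 and 3.08 TPM at E15.5, 15.4, 28.0 and 17.3 TPM at E16.5, 30.2, 23.0, 24.7 and 15.1 TPM at E17.5, and 31.3, 38.8 and 36.1 TPM at E18.5. Each of the E18.5 libraries was above every other library in the series. In NSC it measured 0.18 TPM or less through E13.5, 2.10, 3.18, 1.77 and 1.18 TPM at E14.5, 6.77, 12.9 and 4.67 TPM at E15.5, and 22.5, 18.1 and 22.7 TPM at E16.5, then 18.6, 17.3 and 17.8 TPM at E18.5. NSC and BP ranges overlapped on 6 of 7 days, and their log2 difference was 0.07 ± 0.10. NBN stayed at 0.712 TPM or less in all 13 libraries, below every NSC and BP library on 4 of 4 days. The log2 difference was -3.95 ± 0.14 between NBN and BP and -3.81 ± 0.14 between NBN and NSC, and these sizes depend on the pseudocount of 1 added before the logarithm because NBN is near 0. The span of the course was 6.07 ± 0.24 in BP, 5.45 ± 0.21 in NSC and 0.19 ± 0.26 in NBN.

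Gcg encodes proglucagon, the source of glucagon and of the glucagon-like peptides. BP measured 5.91 and 6.57 TPM at E12.5, 12.7, 7.20 and 6.03 TPM at E13.5, 16.8, 19.5 and 15.1 TPM at E15.5, 16.6, 18.3 and 20.8 TPM at E16.5, 20.2, 25.7, 15.7 and 12.52 TPM at E17.5, and 12.7, 10.9 and 9.33 TPM at E18.5. The 6 libraries of E14.5 ran from 8.14 to 14.52 TPM. NSC libraries had 0.256 to 6.48 TPM with a median of 3.55 TPM and NBN libraries 1.13 to 7.52 TPM with a median of 3.04 TPM. Every NSC library was below every BP library of its day on 7 of 7 days, and the same held for NBN on 4 of 4 days. The log2 difference was -1.54 ± 0.12 between NSC and BP and -2.09 ± 0.16 between NBN and BP, against -0.40 ± 0.17 between NBN and NSC. The 3 highest group means were BP at E16.5 (18.6 ± 2.11 TPM, SD, n = 3), E17.5 and E15.5, with overlapping ranges and a gap to BP at E18.5. The span of the BP course was 1.08 ± 0.29, close to the threshold of 1, and was 0.91 after quantile scaling and 0.98 after median-of-ratios scaling. It was 1.55 over the course that ends at E17.5, so the slope to E18.5 averages over a rise and a fall.

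Sst encodes somatostatin, which inhibits hormone and transmitter release and marks a large class of interneurons. In NSC it measured 0.699, 0.204 and 20.7 TPM at E11.5, 57.0, 69.8, 35.1 and 7.16 TPM at E12.5, 22.2, 48.6 and 44.8 TPM at E13.5, 13.6, 30.6, 83.7 and 41.0 TPM at E14.5, and 36.1, 35.3 and 28.2 TPM at E16.5. By E18.5 it measured 20.8, 6.30 and 4.08 TPM, with replicate 1 again the highest. BP libraries had 0.184 to 20.1 TPM with a median of 2.28 TPM, and NSC was above BP without overlap on 7 of 7 days. NBN had 3.13, 1.08 and 3.90 TPM at E15.5, 3.77, 22.7 and 26.3 TPM at E16.5, 14.6, 4.44, 9.17 and 35.5 TPM at E17.5, and 5.13, 5.14 and 2.87 TPM at E18.5. The log2 difference was 2.90 ± 0.31 between NSC and BP and -1.44 ± 0.41 between NBN and NSC. The difference of 1.12 ± 0.40 between NBN and BP drops under 1 when BP E15.5 replicate 2 (0.98), BP E16.5 replicate 1 (0.92) or NBN E17.5 replicate 4 (1.00) is left out. All 18 neighbouring pairs in the order of group means overlapped.

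**Figure D2:**
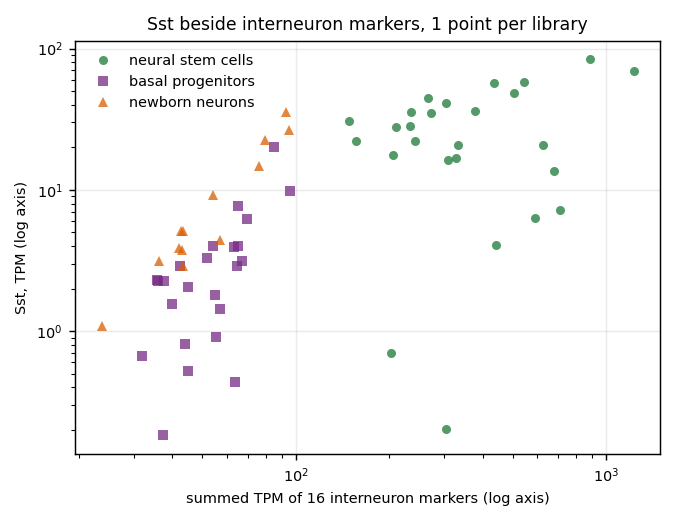
TPM of Sst against the summed TPM of 16 interneuron markers, both on log axes, with 1 point per library and colours for the 3 cell types. NSC libraries lie to the right, at sums of 149 to 1226 TPM, and the BP and NBN libraries at sums of 23.7 to 96.1 TPM.

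Interneuron markers, like Sst, were higher in NSC than in BP and NBN, but did not track it in every library. Of the 16 interneuron markers, 13 were past the thresholds as higher in NSC than in BP by limma and 0 as lower (14 and 1 at an unadjusted p under 0.05), with a median log2 difference of 2.26, and 13 were lower in NBN than in NSC. The marker sum of NSC libraries was 1226 TPM in E12.5 replicate 2, which had 69.8 TPM of Sst, and 888 TPM in E14.5 replicate 3, which had 83.7 TPM. Against this, sums of 710 TPM in E12.5 replicate 4 and 679 TPM in E14.5 replicate 1 stood beside 7.16 and 13.6 TPM of Sst, and sums of 441 to 627 TPM at E18.5 beside 4.08 to 20.8 TPM. Between NBN and BP, where Sst was higher in NBN, limma called 0 of the 16 markers higher and 1 lower (7 and 3 at an unadjusted p under 0.05). The highest NBN sums, 79.8 and 95.3 TPM at E16.5 and 92.8 TPM at E17.5, are on the days of its highest Sst values. Lhx8 was at 0 in some libraries of each cell type and Slc32a1 in some of NBN. The 3 genes whose 19 group means were most like those of Sst on the log2(TPM + 1) scale were Lhx6 (Pearson r = 0.89), Rpp25 (0.86) and Slc32a1 (0.85), of 11244 genes compared, and 2 of these 3 are on the interneuron list. The highest group means of Npy were those of NBN, where interneuron markers summed to 23.7 to 95.3 TPM. The part of interneurons in the Sst and Npy values was not tested.

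**Figure D3:**
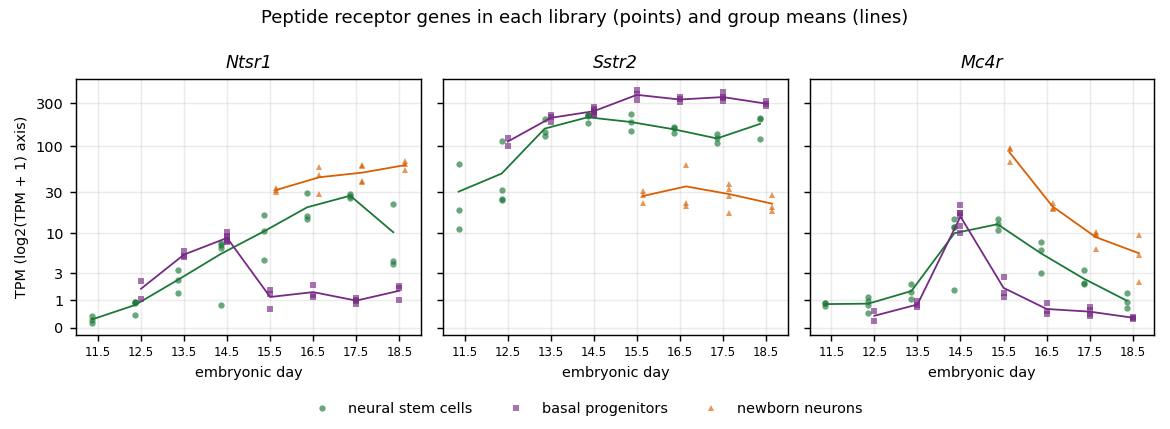
TPM of the 3 receptor genes on a log2(TPM + 1) axis against embryonic day, with 1 point per library, lines through group means, and colours for the 3 cell types. Sstr2 was at 101 to 415 TPM in BP and 17.47 to 62.0 TPM in NBN, whereas Ntsr1 and Mc4r were highest in NBN.

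Sstr2, a somatostatin receptor that couples to inhibitory G proteins, was the most abundant member in BP. BP measured 101 and 123 TPM at E12.5, 219, 187 and 212 TPM at E13.5, 374, 323 and 415 TPM at E15.5, 307, 330 and 350 TPM at E16.5, 397, 347, 340 and 317 TPM at E17.5, and 316, 276 and 296 TPM at E18.5, with 220 to 274 TPM in the 6 libraries of E14.5. The BP libraries from E15.5 on were thus all above those of E12.5 to E14.5. NSC measured 11.2, 18.7 and 62.2 TPM at E11.5, 24.9, 25.5, 114 and 32.4 TPM at E12.5, 198, 142 and 129 TPM at E13.5, and between 107 and 224 TPM in every library from E14.5 on. NBN measured 31.1, 22.7 and 28.2 TPM at E15.5, 21.1, 22.4 and 62.0 TPM at E16.5, 27.2, 33.3, 17.47 and 37.2 TPM at E17.5, and 18.2, 20.5 and 28.4 TPM at E18.5. These were below every NSC and BP library of the same day on 4 of 4 days. The log2 difference was -3.60 ± 0.18 between NBN and BP, -2.49 ± 0.18 between NBN and NSC, and -0.93 ± 0.14 between NSC and BP, where 4 of 7 days did not overlap. Over the course the span was 2.28 ± 0.28 in NSC and 1.32 ± 0.31 in BP.

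Ntsr1, the high-affinity neurotensin receptor and a known marker of layer 6 corticothalamic neurons, was highest in NBN. It measured 31.6, 34.0 and 30.6 TPM at E15.5, 47.5, 57.6 and 28.9 TPM at E16.5, 59.5, 41.0, 61.5 and 39.6 TPM at E17.5, and 62.7, 53.8 and 67.4 TPM at E18.5. In BP it measured 1.08 and 2.28 TPM at E12.5, 5.17, 6.00 and 5.01 TPM at E13.5, 10.3, 8.24, 8.98, 8.04, 9.16 and 7.84 TPM at E14.5, and 0.620, 1.33 and 1.57 TPM at E15.5, and no later BP library exceeded 1.94 TPM. BP therefore peaked at E14.5 with no overlap with E13.5 or E15.5. NSC measured 0.125, 0.203 and 0.352 TPM at E11.5, 0.782, 7.54, 7.12 and 6.65 TPM at E14.5, 14.97, 15.9 and 29.9 TPM at E16.5, 27.5, 29.1 and 26.0 TPM at E17.5, and 22.3, 4.03 and 4.49 TPM at E18.5. NSC was below BP without overlap on 3 days and above it on 4, so the mean log2 difference of 1.23 ± 0.15 joins days of opposite sign. The log2 difference was 4.35 ± 0.19 between NBN and BP and 1.61 ± 0.20 between NBN and NSC, and the span of the NSC course was 4.06 ± 0.30. That of the BP course, -1.19 ± 0.34, averages over the peak.

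Mc4r, the melanocortin receptor known for the control of food intake, had the most negative difference of the 9 members over the NBN days. It measured 65.9, 96.1 and 92.6 TPM at E15.5, 19.4, 22.7 and 19.9 TPM at E16.5, 10.4, 6.28, 9.67 and 9.59 TPM at E17.5, and 5.26, 9.43 and 2.18 TPM at E18.5. The libraries of E15.5, E16.5 and the later days did not overlap, and the span of the course was -3.80 ± 0.34. In BP it measured 0.171 and 0.525 TPM at E12.5, 0.945, 0.671 and 0.768 TPM at E13.5, 17.48, 16.02, 21.5, 17.4, 10.01 and 12.4 TPM at E14.5, 1.19, 2.60 and 1.43 TPM at E15.5, and 0.882 TPM or less afterwards. The E14.5 libraries were thus above every other BP library, and a slope through these days (-0.87 ± 0.30) does not describe them. NSC measured 1.59, 14.8, 11.9 and 11.8 TPM at E14.5, 14.8, 10.9 and 12.8 TPM at E15.5, 6.10, 7.85 and 2.96 TPM at E16.5 and 0.464 to 2.04 TPM before E14.5. NBN was above BP and above NSC without overlap on 4 of 4 days, with log2 differences of 3.42 ± 0.18 and 1.88 ± 0.18.

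Ntsr1 and Mc4r were both lower in BP at E15.5 than at E14.5 without overlap, and E15.5 is the day on which NBN libraries begin. The sources used here do not say whether the BP gate changed between these days, so a change of gate and a change in the cells cannot be told apart. The 8 neuron markers summed to 6157 to 7859 TPM in BP at E14.5 and 5810 to 7035 TPM at E15.5, ranges that overlap. The 13 layer 6 and corticothalamic markers summed to 1206 to 1591 TPM in BP at E14.5 and 897 to 1007 TPM at E15.5. In NBN the same list went from 1969 to 2449 TPM at E15.5 down to 463 to 811 TPM at E18.5. Over the course 11 of its 13 genes were past the thresholds as lower and 1 as higher. Mc4r was lower like those 11 and Ntsr1 was not, and the part of layer 6 cells in the values was not tested.

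Likeness was measured as Pearson r over the 19 group means of log2(TPM + 1), among 11244 tested genes whose highest group mean was at least 10 TPM. The groups share cell types and days, so r describes a shared order and carries no test. Ntsr1 was most like Mef2c (r = 0.99), Ccbe1 (0.98) and Mafk (0.97). Mc4r was most like Prickle1 (0.97), St3gal1 (0.95) and Kcnv1 (0.95), and Npy was most like Gucy1a3 (0.94), Gucy1b3 (0.93) and Gnb4 (0.91). Gucy1a3 and Gucy1b3 encode the subunits of the guanylate cyclase that nitric oxide activates. Gcg was most like Ptprs (0.96), Plch2 (0.94) and Shf (0.93), Sstr2 most like Rasgef1b (0.95), Vps37b (0.95) and Gsdmd (0.95), and Tac2 most like Loxl1 (0.96), Dgkz (0.94) and Ttc39c (0.93). Cck was most like Pcdhb20 (0.95), Gm20503 (0.95) and Tmem62 (0.94). Nts had the lowest leading value, with Lmo4 (0.86). Among the members themselves the highest values were 0.88 for Npy with Ntsr1, 0.82 for Gcg with Sstr2, 0.75 for Cck with Ntsr1 and 0.71 for Ntsr1 with Mc4r. Sst and Sstr2, a ligand and its receptor, had r = -0.10, and Nts and Ntsr1 had r = 0.38.

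Gcg and Sstr2 had their highest group mean in BP, as did Tac2. The bases before the start sites of Gcg and Sstr2 are printed. Both are the 250 bases upstream of the RefSeq start on GRCm38.p6, read 5′ to 3′ on the coding strand, with capitals marking matches: chr2:62483654-62483903 on the minus strand for Gcg and chr11:113619077-113619326 on the plus strand for Sstr2.
Gcg: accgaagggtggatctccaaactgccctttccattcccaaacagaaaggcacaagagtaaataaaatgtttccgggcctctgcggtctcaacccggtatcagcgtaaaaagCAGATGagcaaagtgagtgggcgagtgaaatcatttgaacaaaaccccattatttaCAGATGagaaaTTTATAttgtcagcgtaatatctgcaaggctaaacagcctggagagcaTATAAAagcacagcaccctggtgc
Sstr2: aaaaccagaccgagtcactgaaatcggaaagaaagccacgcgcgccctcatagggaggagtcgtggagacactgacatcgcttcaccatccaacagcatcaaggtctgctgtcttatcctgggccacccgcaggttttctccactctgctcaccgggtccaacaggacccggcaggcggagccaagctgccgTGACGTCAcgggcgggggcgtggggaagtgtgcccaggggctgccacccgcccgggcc
The letters searched, on both strands, were CAGATG and CAGCTG (E-boxes), AGGTGTGA (T-box), TGACGTCA (cyclic AMP response element) and the core promoter box TATAAA. Windows of this length were searched for 8 of 9 members, and none was searched for Mc4r. The 32851 windows of the table hold CAGATG in 14.4%, CAGCTG in 13.001%, AGGTGTGA in 1.12%, TGACGTCA in 1.55% and TATAAA in 12.4%. Counted in bases from the start site, the Gcg window holds CAGATG at -139 and -83 and TATAAA at -72 and -24. The Sstr2 window holds TGACGTCA at -58 and the Sst window holds the same letters at -48, so the receptor and its ligand share this match. Of the other windows, that of Cck holds CAGATG at -30, that of Nts CAGCTG at -186 and that of Tac2 CAGCTG at -22, and those of Npy and Ntsr1 hold none of the letters. A match is a description of the sequence, not of binding.

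**Figure D4:**
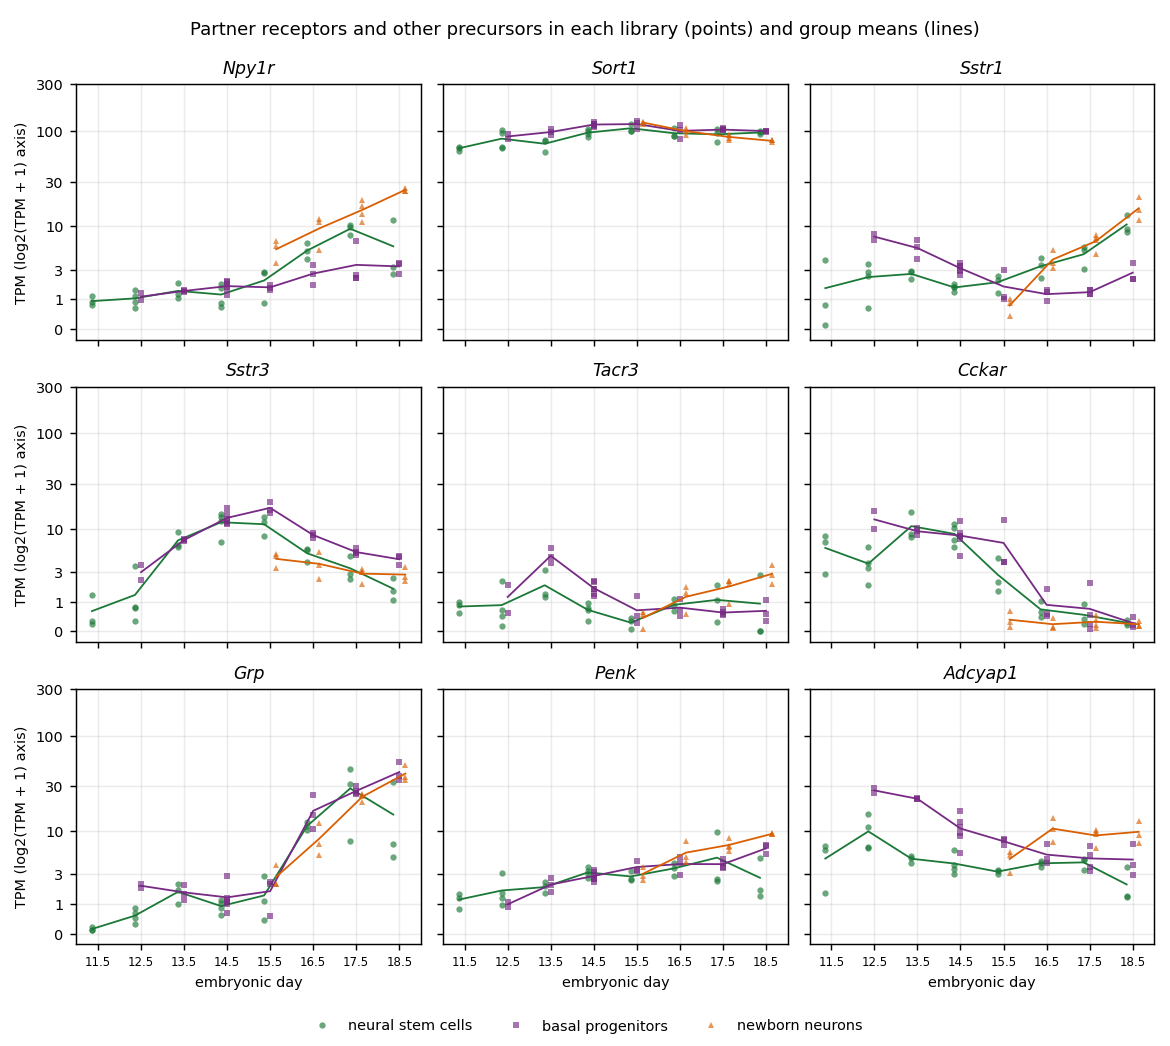
TPM of 6 partner receptors and 3 further precursors on a log2(TPM + 1) axis against embryonic day, with 1 point per library and lines through group means. Npy1r reached 24.8 TPM in NBN at E18.5, Cckar fell from 12.6 TPM in BP at E12.5, and Grp reached 42.3 TPM in BP at E18.5.

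Partners of the members were measured in the same libraries and, not being members, were tested with limma across all 15231 genes with Benjamini-Hochberg adjustment. Of the receptors for neuropeptide Y only Npy1r passed the filter, and it was higher in NBN than in BP by 1.81 ± 0.15 (adjusted p = 7.46e-15, higher on 4 of 4 days) and rose over the NBN course by 2.03 ± 0.29 (adjusted p = 7.13e-07, 3 of 3 E18.5 libraries above every E15.5 library). Its group means in NBN were 5.46, 9.49, 15.2 and 24.8 TPM from E15.5 to E18.5, so ligand and receptor were both highest in NBN, but Npy had its peak earlier. Npy2r, Npy4r, Npy5r and Npy6r had group means of at most 0.641 TPM and were not tested. For neurotensin, Sort1, the sorting receptor that also binds it, was at 66.9 to 123 TPM in all groups with no call, and Ntsr2 had at most 1.81 TPM.

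Among the other somatostatin receptors, Sstr1 rose over the NBN course by 3.12 ± 0.30 (limma adjusted p = 5.71e-11, 3 of 3 last-day libraries above every first-day one), from 0.736 to 15.8 TPM, and fell over the BP course by 1.61 on the log2 scale (limma adjusted p = 2.47e-06, 3 of 3 below). Its higher level in NBN than in BP (1.10 ± 0.15, limma adjusted p = 2.35e-08, on 3 of 4 days) is 0.75 without E18.5. Sstr3 peaked in BP at E15.5 with 16.8 ± 2.55 TPM (SD, n = 3), the day of the highest Sstr2 mean, and Sstr4 and Sstr5 had at most 1.00 TPM. Tacr3, the receptor for neurokinin B, was highest in BP at E13.5 (4.83 ± 1.04 TPM, n = 3), when Tac2 was listed at 0 there. It fell over the BP course by 1.23 on the log2 scale (limma adjusted p = 5.35e-04, 2 of 3 last-day libraries below every first-day one), a call that ends without BP E12.5 replicate 2 (-0.93). Over the NBN course Tacr3 was called higher, by 1.44 on the log2 scale (3 of 3 last-day libraries above every first-day one), from 0.369 to 2.83 TPM.

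Cckar, a cholecystokinin receptor, fell over the BP course by 3.90 on the log2 scale (limma adjusted p = 1.44e-15, 3 of 3 last-day libraries below every first-day one), from 12.6 to 0.215 TPM, and over the NSC course by 2.92 (limma adjusted p = 8.74e-14, 3 of 3), while Cck itself was higher on later days of NSC. Cckbr had at most 0.372 TPM. The receptors for the products of Gcg, which are Gcgr, Glp1r and Glp2r, had group means of at most 0.455 TPM and were not tested. Pomc, the precursor of the melanocortins that activate Mc4r, had a highest group mean of 7.05 TPM in NSC at E12.5 with no call. Agrp, the natural antagonist, had at most 0.632 TPM, and Mrap2, an accessory protein of Mc4r, had 4.11 TPM at most, in NBN at E18.5.

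**Figure D5:**
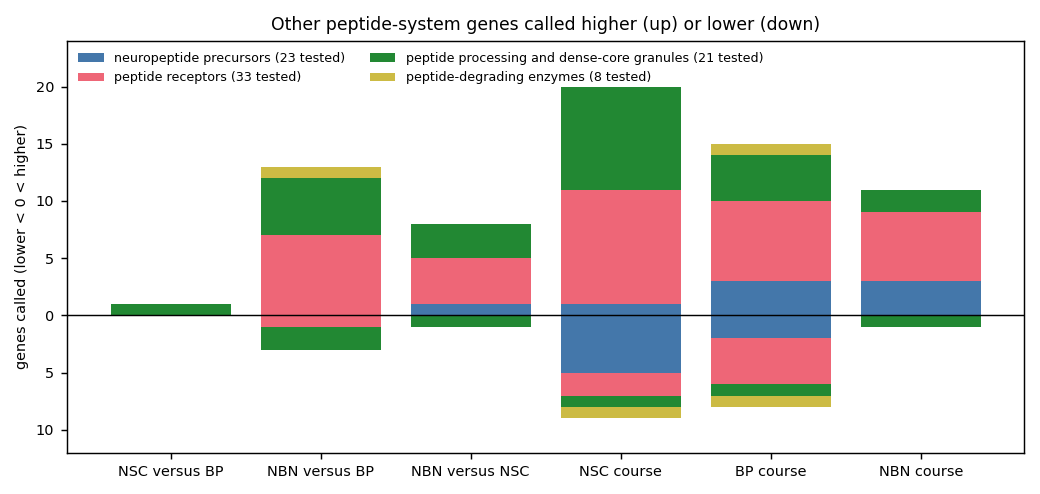
Number of other peptide-system genes called higher (above 0) or lower (below 0) in each of 6 comparisons, stacked by list. The largest bars are those of the NSC course, with 20 called higher and 9 lower of 85 tested, beside 14.8% and 8.17% of all tested genes.

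Beyond the members, 154 other listed genes of the peptide system were in the table and 85 of them passed the filter. They were 23 precursors, 33 receptors, 21 genes of peptide processing and dense-core granules and 8 peptide-degrading enzymes. The receptor list also holds receptor accessory proteins (Ramp1, Ramp2 and Ramp3). Between NSC and BP, 1 of 85 was called higher and 0 lower by limma, beside 2.56% and 0.466% of all tested genes. At an unadjusted p under 0.05, with no minimum difference, 21 were higher and 30 lower. The gene called was Pcsk6, a convertase, higher in NSC by 1.30 ± 0.10 (limma adjusted p = 5.90e-16, on 7 of 7 days). The median log2 difference of the 85 was -0.06, beside 0.00 for all tested genes.

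Between NBN and BP, 13 of 85 were called higher and 3 lower, beside 5.75% and 5.09% of all tested genes. The median was 0.08 beside -0.06 for all tested genes. Of 23 precursors limma called 0, and at an unadjusted p under 0.05 there were 6 higher and 7 lower. Of the 33 on the receptor list 7 were higher, and 1 was lower, Galr1 (-1.24 ± 0.07). Among the higher were the accessory protein Ramp3 (1.98 ± 0.16, limma adjusted p = 7.23e-15), Crhr1 (1.63 ± 0.13, limma adjusted p = 4.49e-15), the receptor for corticotropin-releasing hormone, and Pth1r (1.65 ± 0.13, limma adjusted p = 1.46e-15), each on 4 of 4 days. Processing genes split: Pcsk5 (1.49 ± 0.11, limma adjusted p = 3.67e-16) and Pcsk2 (1.96 ± 0.18, limma adjusted p = 4.07e-13), both convertases, and Ptprn2 (1.80 ± 0.18) were higher in NBN. Pam, the amidating enzyme, was lower by 2.17 on the log2 scale (-2.17 ± 0.09, limma adjusted p = 1.00e-25, on 4 of 4 days), at 38.4 to 66.9 TPM in NBN against 196 to 300.4 TPM in BP, and so was the granule protein Chga (-1.15 ± 0.11, limma adjusted p = 7.47e-13). Of the members whose stretch carries the amidation glycine, Npy and Cck were higher in NBN than in BP, where Pam was lower, and Tac2 and Gcg were higher in BP, where Pam was higher. Of the 10 microglia markers 8 were also called higher in NBN than in BP, and their part in these calls was not tested.

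Between NBN and NSC, 8 of 85 were called higher and 1 lower, beside 2.55% and 6.11% of all tested genes, with a median of 0.13 beside -0.06. Pam was again the lower one (-1.41 ± 0.09, limma adjusted p = 1.29e-18, on 4 of 4 days). The higher ones included Ramp3 (1.87 ± 0.17, limma adjusted p = 1.33e-13), the granule protein Scg2 (1.45 ± 0.21, limma adjusted p = 5.54e-08) and the precursor of PACAP, Adcyap1 (1.06 ± 0.16, limma adjusted p = 1.32e-07), each on 4 of 4 days. Without E18.5, Adcyap1 (0.81), Npy1r (0.80) and Crhr1 (0.89) are no longer called, and 3 of the 85 are called higher.

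Over the NSC course 20 of 85 were called higher and 9 lower, beside 14.8% and 8.17% of all tested genes. The median was 0.28 beside 0.09 for all tested genes. Granule and processing genes made up 9 of the 20: Pam (2.36 ± 0.14, limma adjusted p = 3.68e-20), Furin (1.499 ± 0.11, limma adjusted p = 5.34e-17) and Chga (2.21 ± 0.17, limma adjusted p = 9.15e-16) had the smallest p. Of the 33 on the receptor list 10 rose, the accessory proteins Ramp1 and Ramp2 included. They were led by the PACAP receptor Adcyap1r1 (2.61 ± 0.15, limma adjusted p = 4.84e-20) and Gipr (4.13 ± 0.24, limma adjusted p = 7.35e-20), the receptor for the incretin GIP. Gipr went from 1.15 TPM at E11.5 to 48.5 TPM at E17.5. Of 23 precursors 1 rose, Grp (4.23 ± 0.32, limma adjusted p = 3.04e-16), which encodes gastrin-releasing peptide, and 5 fell, among them Apln (-1.70 ± 0.23, limma adjusted p = 1.22e-08). For each of the genes just named, 3 of 3 last-day libraries lay beyond every first-day library. Among the other precursors that fell, this held for 1 of 3 libraries in Pmch and 2 of 3 in Tac1. Over the same course limma called 9 of 10 microglia markers (median 1.81) and 4 of 8 neuron markers (median 1.09) higher. It called 6 of 8 radial glia markers lower and 2 higher, and 5 of 8 Cajal-Retzius markers lower and 0 higher. Radial glia markers summed to 2389 to 2895 TPM at E11.5, 1131 to 1702 TPM at E17.5 and 3209 to 6664 TPM at E18.5. Microglia markers summed to 3.02 to 6.67 TPM at E11.5 and 8.31 to 55.6 TPM at E18.5. The part of these lists in the changes was not tested.

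Over the BP course 15 of 85 were called higher and 8 lower, beside 6.9% and 4.39% of all tested genes, with a median of 0.13 beside 0.09. Over the NBN course 11 were called higher and 1 lower, beside 3.3% and 1.44%, with a median of 0.13 beside 0.04. Over the BP course limma also called all 6 endothelium markers higher (sums of 1.03 to 1.04 TPM at E12.5 and 3.79 to 16.2 TPM at E18.5). It called 5 of 8 Cajal-Retzius markers lower and 1 higher, 6 of 13 layer 6 markers lower and 1 higher, and 3 of 8 neuron markers lower. Their part in the peptide-system calls was not tested, nor was that of the microglia and layer 6 markers over the NBN course. Grp rose in both, by 4.53 ± 0.36 in BP (limma adjusted p = 6.23e-15) and by 3.58 ± 0.40 in NBN (limma adjusted p = 2.14e-09), to 42.3 and 40.7 TPM at E18.5. Penk, the enkephalin precursor, rose by 1.59 ± 0.23 in BP (limma adjusted p = 9.37e-08) and 1.31 ± 0.25 in NBN (limma adjusted p = 1.29e-04). Adcyap1 fell over the BP course by 2.59 on the log2 scale (limma adjusted p = 3.77e-11), from 27.2 TPM at E12.5 to 4.62 TPM at E18.5. Galr1, a galanin receptor, rose in BP by 2.65 ± 0.13 (limma adjusted p = 3.38e-22), and Vgf, a granule protein, in NBN by 1.89 ± 0.26 (limma adjusted p = 2.90e-07). For each of these genes 3 of 3 last-day libraries lay beyond every first-day library. Grp thus rose over the courses of all 3 cell types, unlike Tac2, which was near 0 in NBN throughout.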

How the data were processed

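RNA of sorted cells was sequenced as single reads on an Illumina HiSeq from TruSeq RNA v2 libraries, a kit that does not mark strand, so overlapping antisense transcripts cannot be told apart, per the labels' protocols. The deposited values are TPM per gene, made by the authors with kallisto 0.43.0. GRCm38.p2 and mm10 are the builds listed, per the submitters' processing notes. The sources used here do not name the transcript annotation. Columns summed to 999998 to 1000002 TPM. No counts were used here, so depth is unknown and the only measure of precision is how far libraries of 1 group spread. All columns matched a labelled sample.

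From these, log2(TPM + 1) was fitted for 15231 genes (at least 1 TPM in at least 3 libraries) in limma 3.58.1 (R 4.3.3). The model had 1 mean per group (19 groups), used all 63 libraries and let the variance follow a trend in level. P-values were adjusted by Benjamini-Hochberg over all tested genes. Fold differences are on the log2(TPM + 1) scale, which understates those of low genes. A difference between cell types is the average over the days both have, and a course is the slope through group means times its length in days. The script was tested on simulated data.

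The members and lists were chosen with earlier results of these data known. Named are the members, their ligand or receptor partners, up to 3 called genes of smallest adjusted p per list, comparison and direction (those described in the text are some of these), and the 3 genes most like each member (for Nts only the first is reported here). Coding stretches and promoters were read from GENCODE vM21 and RefSeq, both on GRCm38 as the deposited values are. Alternatives were pseudocounts of 0.1 and 5, no filter, a mean of at least 5 TPM, quantile and median-of-ratios scaling, and a Y-linked covariate. Others were only the libraries compared, a replicate block over all groups or within each day, no E18.5, and each library left out in turn.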

Additional observations from a re-analysis of the deposited data

Results flagged for a closer look

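Within groups of 4 to 10 libraries, 9 of 45 checks of the members found a library farther from the nearest other one than Dixon's 95% limit allows, where chance gives about 1 in 20. Npy was 28.9 TPM in NSC E14.5 replicate 3 against 10.96 to 12.7 TPM in the others, and 2.38 TPM in BP E17.5 replicate 3 against 4.89 to 5.38 TPM. Nts was 6.35 TPM in NSC E12.5 replicate 3 against 0 to 0.643 TPM. Sstr2 was 114 TPM in that same library against 24.9 to 32.4 TPM. Tac2 was 0.171 TPM in NSC E12.5 replicate 2, with the others listed at 0, and 0.223 TPM in NBN E17.5 replicate 1 against 0.0973 to 0.112 TPM. Sst was 9.88 TPM in BP E17.5 replicate 4 against 2.89 to 3.93 TPM. Ntsr1 was 0.381 TPM in NSC E12.5 replicate 4 against 0.857 to 0.926 TPM, and 0.782 TPM in NSC E14.5 replicate 1 against 6.65 to 7.54 TPM. That last library also had the lowest Mc4r and Cck of its group, at 1.59 and 2.68 TPM, and the lowest neuron marker sum, 3081 TPM against 4784 to 6139 TPM. The part of neurons in these values was not tested.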

How the results depend on the processing

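The 34 member values past the thresholds, of 54, kept their sign under 12 settings and each of 63 libraries left out, while their size depended on the pseudocount. No gene call reversed. TPM keeps no depth, so low values cannot be told from sampling noise.

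Pseudocount 0.1: of all genes, NSC versus BP called 740 higher and 157 lower (390 and 71 with 1), NBN versus BP 1317 higher (876), NBN versus NSC 731 and 1419 (388 and 930), the BP course 1588 higher (1051) and the NBN course 775 higher (502). Of peptide-system genes it called 5 higher and 3 lower in NSC versus BP, 9 lower in NBN versus BP, 14 higher and 8 lower in NBN versus NSC, 13 lower in the BP course and 18 higher in the NBN course. Pseudocount 5: of all genes, NSC versus BP called 170 and 25, NBN versus BP 470 and 400, NBN versus NSC 149 and 456, the NSC course 1367 and 765, the BP course 485 and 349 and the NBN course 184 and 132. Of peptide-system genes it called 0 higher in NSC versus BP, 6 higher in NBN versus BP, 1 higher in NBN versus NSC, 13 higher and 2 lower in the NSC course, 7 and 3 in the BP course and 4 and 0 in the NBN course. Among members, it took Gcg (-0.99), Nts (-0.82) and Ntsr1 (0.78) in NSC versus BP, Sst in NBN versus BP (0.63), Nts in NBN versus NSC (0.97), Gcg in the NSC (0.69) and BP (0.80) courses and Ntsr1 in the BP course (-0.59) under 1.

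A mean of at least 5 TPM, which tests fewer genes, left peptide-system calls of 0 higher in NSC versus BP, 6 higher in NBN versus BP, 5 higher in NBN versus NSC, 12 higher and 1 lower in the NSC course, 4 lower in the BP course and 3 higher in the NBN course, where 223 of all genes were higher. Peptide-system genes lower in NSC than in BP (0) became 2 with quantile scaling and 1 each with median-of-ratios scaling, the Y-linked covariate, without E18.5 and without the NSC libraries of E18.5. Without E18.5, NBN versus BP had 5 peptide-system genes lower, NBN versus NSC 251 genes and 3 peptide-system genes higher, the NSC course 1915 genes lower and the NBN course 259 higher. Without the NSC libraries of E18.5, chosen after seeing the data, NBN versus NSC had 252 genes and 3 peptide-system genes higher and the NSC course 1915 genes lower. Without E18.5 a course is 1 day shorter. The cause was not tested further.

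Leaving out 1 library gave 0 to 2 peptide-system genes lower in NSC versus BP (26 of 47 libraries changed it), 3 to 5 lower in NBN versus BP (BP E15.5 replicate 2, NBN E15.5 replicate 1, E16.5 replicate 3 and E17.5 replicate 4 gave 5), and 0 to 1 lower in the NBN course (0 without NBN E15.5 replicate 1 or E18.5 replicate 1). Among members it took Gcg (1.00 without BP E13.5 replicate 3) and Ntsr1 (-0.98 without BP E12.5 replicate 2) in the BP course, and Sst in NBN versus BP (lowest 0.92), under 1 in size or to its edge.

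Replicate numbers are not stated to pair samples. Between NBN and BP, 12 of 13 same-numbered pairs had a correlation of deviations over 0.1 (mean 0.37) and 11 of 13 libraries matched best with their own number, but for NSC with BP 7 of 21 pairs had one over 0.1. A replicate block gave 385 higher and 68 lower in NSC versus BP and 876 and 776 in NBN versus BP. It moved no count by over 1.5 times, but its effects are shared by all days and cell types, so it does not model pairs within a day. A block within each day, chosen after seeing the data, also moved no cell type count by over 1.5 times. The limma call of Pnoc in the NBN course ended with the replicate block (adjusted p = 0.0547), no filter (0.069), quantile scaling (0.0596), pseudocount 5 (0.196) and without E18.5 (0.136). That call also ended in 11 of 13 fits that left out 1 library.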
